A study of Rattus norvegicus with 12 samples.

Results

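The 8 genes described here encode the enzymes that are particular to gluconeogenesis, the transporter that serves the last of them, and 2 regulators of the pathway. They are G6pc1, Pck1, Pck2, Fbp1, Pc, Slc37a4, Ppargc1a and Gcgr. They were chosen by name, each was read from the 1 probe that the platform table links to it, and all 8 were found among the 14497 genes with a named probe. All 8 also lay above the filter on dim genes, which left 10174 genes for testing.

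RNA came from the livers of Sprague Dawley rat fetuses taken at day 19 of gestation (term is day 21). The control dams ate freely until then, and food was withheld from the other dams for 48 hr, starting on day 17, as a model of growth-restricted fetuses. From each diet both total liver RNA and RNA recovered from polysomes, the sucrose gradient fractions in which messages carry several ribosomes, were hybridised to Affymetrix Rat Gene 1.0 ST arrays, which made 4 groups of 3 arrays. The labels name 3 dams per diet and call the arrays biological replicates. They do not say how many fetuses of a litter went into a sample, and the polysome RNA was extracted from pooled preparations by another method than the total RNA, so fraction and extraction method cannot be told apart. Values are log2(intensity + 1), and a difference of 1 is a doubling. In bulk liver RNA, fewer cells of a type and less RNA per cell cannot be told apart.

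Gluconeogenesis makes glucose from lactate, amino acids and glycerol. Pyruvate carboxylase (Pc) makes oxaloacetate, the phosphoenolpyruvate carboxykinases of the cytosol (Pck1) and of mitochondria (Pck2) turn it into phosphoenolpyruvate, fructose bisphosphatase (Fbp1) bypasses the irreversible phosphofructokinase step, and glucose 6-phosphate is carried into the endoplasmic reticulum by Slc37a4 and cleaved there by G6pc1. Glucagon, through its receptor Gcgr and cyclic AMP, raises transcription of Pck1, G6pc1 and the coactivator Ppargc1a in adult liver, and insulin opposes it. In the rat the cytosolic carboxykinase is known to be nearly silent in fetal liver and to appear around birth.

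Markers of the cells of fetal liver were present, which does not show that other tissue was absent. All 9 hepatocyte markers examined (among them Alb, Afp and Apoa1) lay above the filter level, as did all 6 erythroid, 9 endothelial and 10 macrophage markers that had a probe. Array medians ran from 101.3 to 108.3 on the linear scale. Markers of the proximal tubule and of the gut, the other tissues that make glucose or hold these enzymes, were mostly dim. Of 7 tubule markers 2 passed the filter (Slc22a8, with a mean of 9.77 log2, and Slc5a2, with 6.67). Of 4 gut markers with a probe 2 passed (Vil1 and Fabp2). Markers of the exocrine pancreas differed between arrays, as given below beside G6pc1. Their sum was highest among the fed total arrays, which enter the total RNA comparisons of every member.

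Pck1 was the member closest to background. It averaged 6.09 log2 over the 12 arrays, 0.02 above the filter level of 6.07. Probes of olfactory receptor genes, which serve here as a guide to background, had a median of 4.0 and a 95th percentile of 5.63 (59 probes). In total RNA Pck1 read 6.32, 6.02 and 6.07 in fed arrays 1 to 3 and 6.28, 6.02 and 6.06 in fasted arrays. In polysome RNA it read 6.22, 5.60 and 6.11 when fed and 5.57, 6.35 and 6.44 when fasted. The fed and fasted values overlapped in both fractions, and 1 fed and 1 fasted polysome array fell below the olfactory 95th percentile. The fasting difference was -0.02 ± 0.20 SE in total RNA and 0.15 ± 0.20 in polysome RNA (limma adjusted p = 0.975 and 0.736, n = 3 arrays a group). With a probe this dim, the 95% interval in total RNA, -0.46 to 0.42 log2, describes the probe signal.

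The other 7 members were well above background, with means over the 12 arrays from 7.62 (G6pc1) to 11.87 (Pc). Levels of different probes are not comparable with each other, so each gene is described against itself.

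**Figure D1:**
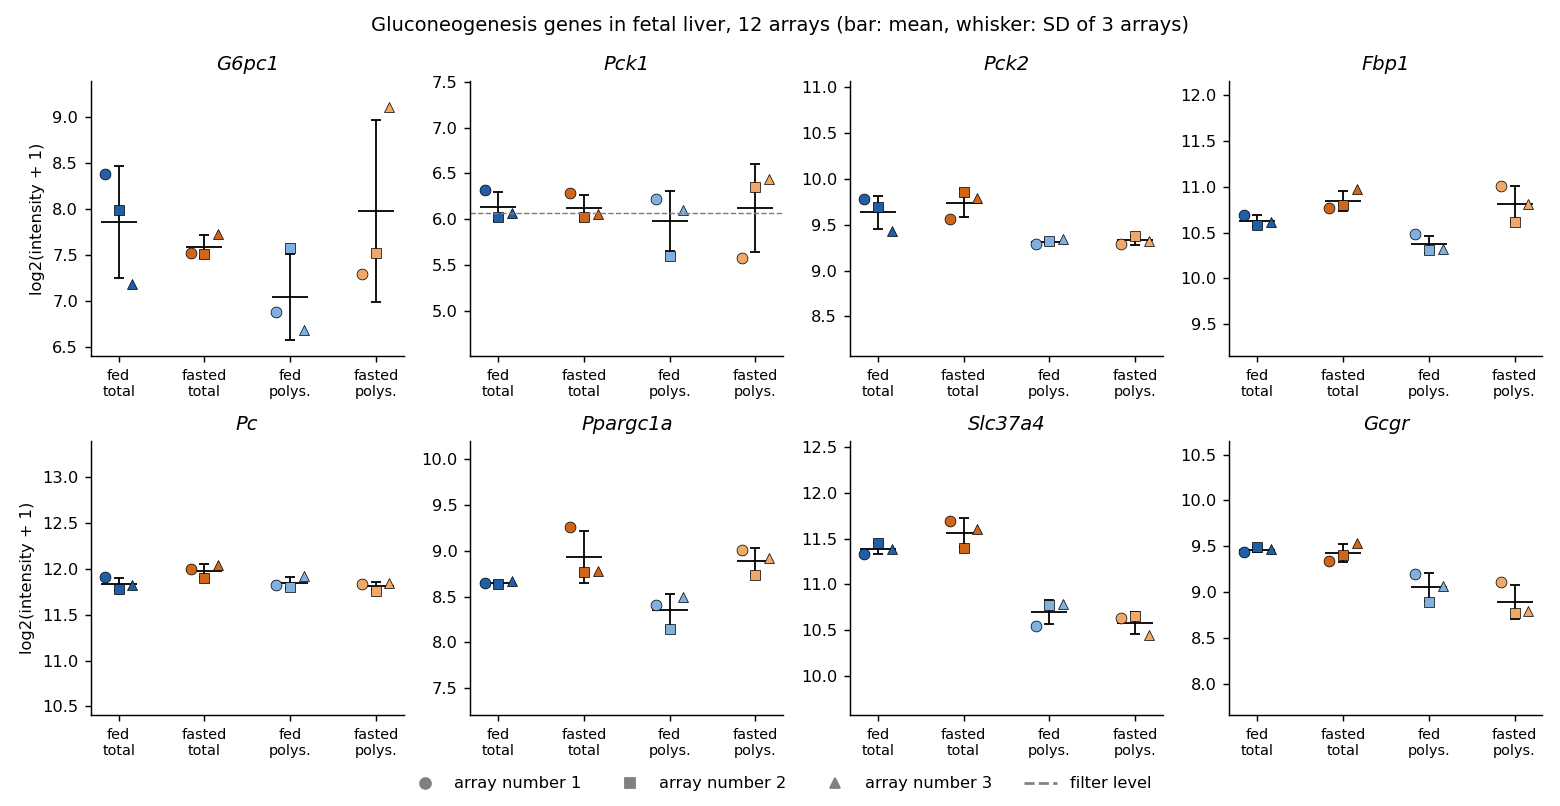
Level of each of the 8 genes on the 12 arrays, as log2(intensity + 1), by diet and RNA fraction. Symbols are single arrays, horizontal bars the mean and whiskers the SD of 3 arrays, each panel spans 3 log2 units, and the dashed line is the filter level of 6.07. G6pc1 spreads furthest within groups, from 7.30 to 9.12 among fasted polysome arrays, Fbp1 and Ppargc1a sit higher in fasted than in fed arrays of both fractions, and Slc37a4 and Gcgr sit lower on polysomes.

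Fbp1 was the 1 member that rose with maternal fasting past the threshold, and it did so in polysome RNA. Fbp1 read 10.48, 10.31 and 10.33 in fed polysome arrays 1 to 3 and 11.00, 10.62 and 10.81 in fasted ones. All fasted arrays were above all fed arrays. The rise was 1.36-fold (0.44 ± 0.098 SE log2, 95% interval 0.23 to 0.65, limma adjusted p = 0.0428, n = 3 a group). In polysome RNA 2.01% of all tested genes passed the threshold and 1.59% passed it upward, against 1 of the 8 members. The call was narrow. It was lost with no filter on dim genes (limma adjusted p = 0.0603), with only the polysome arrays in the fit (0.125), and in 9 of 12 fits that left out 1 array. These were the fits without fed polysome 2 or 3 (0.136 and 0.118), fasted polysome 1 or 3 (0.159 and 0.133), any of the 3 fed total arrays (0.0543 to 0.0591), and fasted total 1 or 2 (0.0548 and 0.0534).

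In total RNA Fbp1 read 10.69, 10.58 and 10.62 in fed livers and 10.77, 10.80 and 10.97 in fasted livers. The groups again did not overlap, but the difference of 0.22 ± 0.098 log2 did not pass (limma adjusted p = 0.298). Its interval, 0.01 to 0.43 log2, includes part of the range of the polysome change, and the difference between the changes was not past the threshold (0.22 ± 0.14, limma adjusted p = 0.869).

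Ppargc1a, the coactivator that with FoxO and nuclear receptors drives transcription of the gluconeogenic enzymes, had a similar order of arrays. On polysomes it read 8.41, 8.14 and 8.49 in fed arrays and 9.01, 8.73 and 8.92 in fasted arrays. The difference was 0.54 ± 0.13 log2 (95% interval 0.26 to 0.82), with a limma adjusted p of 0.0511. With the liver as a random block, which takes account of the pairing of total with polysome arrays, the adjusted p was 0.0466. Over 9 alternative settings the adjusted p ran from 0.0319 (array number as a block) to 0.0938 (only the polysome arrays), with 4 of 9 past the threshold, and it was 0.0741 with no filter. In fits without 1 array 3 of 12 passed, those without fed polysome 1 (0.0495), fasted polysome 2 (0.0279) and fasted total 1 (0.0269). The highest values were 0.16 without fed polysome 2, 0.15 without fasted polysome 3 and 0.185 without fasted polysome 1.

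In total RNA Ppargc1a read 8.65, 8.63 and 8.67 in fed livers, a range of 0.03 log2, and 9.26, 8.77 and 8.77 in fasted livers. Fasted liver 1 stood above the other two, and all 3 stood above every fed liver. The difference was 0.29 ± 0.13 log2 (limma adjusted p = 0.301), and 0.12 without fasted total 1 (adjusted p = 0.742). Fasted arrays lay above fed arrays without overlap in both fractions for 2 of the 8 members, Fbp1 and Ppargc1a, and for 4.7% of all tested genes. Across the 12 arrays the levels of the pair correlated at r = 0.78, a description over arrays that share diets, fractions and livers.

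Some markers of other cells moved with diet in the same arrays. In polysome RNA the summed intensity of 9 endothelial markers ran from 4182 to 4330 in fed and from 4548 to 4844 in fasted arrays, and that of 10 macrophage markers from 4582 to 5023 and from 5460 to 5626. Of these lists, 1 of 9 endothelial and 2 of 10 macrophage markers rose past the limma threshold, beside 1.59% of all tested genes. Median changes on polysomes were 0.06 log2 for the endothelial and 0.13 for the macrophage markers, and 0.18 and 0.19 in total RNA. The sums weigh the brightest markers most, such as Lyve1 (mean 11.18 log2), and not every marker rose. Cdh5 read 9.22, 9.11 and 9.11 in fed total and 9.04, 9.05 and 9.06 in fasted total arrays. In total RNA 3 of 9 endothelial and 0 of 10 macrophage markers passed the limma threshold upward, beside 0.737% of all tested genes. There the endothelial sum ran from 6167 to 6790 in fed and from 7677 to 7753 in fasted arrays. The macrophage sum ran from 6869 to 7122 and from 7507 to 8455. The 9 hepatocyte markers summed to 96629 to 104511 in fed and 100111 to 101138 in fasted polysome arrays, with 0 past the limma threshold in either direction. The part of such shifts in the values of Fbp1 and Ppargc1a was not tested.

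**Figure D2:**
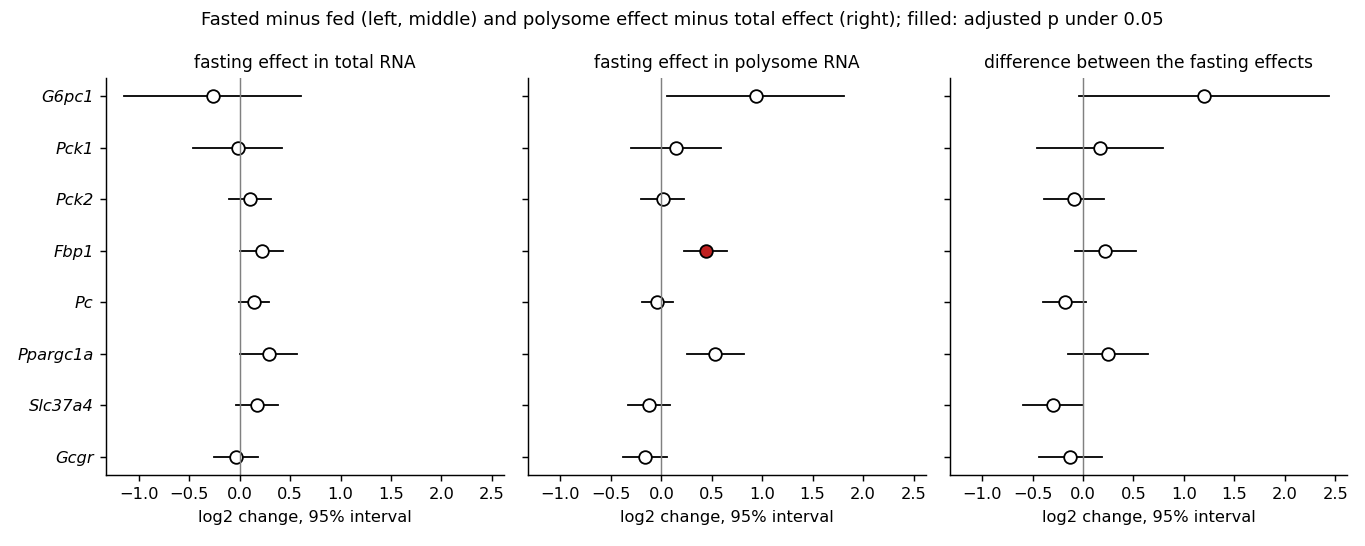
Change of each gene with maternal fasting in total RNA (left) and in polysome RNA (middle), and the polysome change minus the total change (right), in log2 units with 95% intervals from the limma fit. The filled point is the 1 change with an adjusted p under 0.05, that of Fbp1 on polysomes at 0.44, and the widest intervals are those of G6pc1.

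The windows around the RefSeq transcription starts of these genes (250 bases before to 50 after the start, build GRCr8) were searched for the cyclic AMP response element, TGACGTCA, its core TGACG, the FoxO core GTAAACA, and TATAAA, each on both strands. The core lies inside the full element, so every full match is also a core match. Windows were at hand for 7 of the 8 members, with a second start for Slc37a4 and Gcgr. The 4 shown are those of the pair whose arrays were ordered alike, Ppargc1a and Fbp1, and of Pck1 and G6pc1, the classical hormone-driven members. Bases in capitals mark the matches, 5′ to 3′ on the plus strand, at chr14:63634058-63634357 for Ppargc1a, chr17:2213457-2213756 for Fbp1, chr3:182348322-182348621 for Pck1 and chr10:86807409-86807708 for G6pc1.
Ppargc1a: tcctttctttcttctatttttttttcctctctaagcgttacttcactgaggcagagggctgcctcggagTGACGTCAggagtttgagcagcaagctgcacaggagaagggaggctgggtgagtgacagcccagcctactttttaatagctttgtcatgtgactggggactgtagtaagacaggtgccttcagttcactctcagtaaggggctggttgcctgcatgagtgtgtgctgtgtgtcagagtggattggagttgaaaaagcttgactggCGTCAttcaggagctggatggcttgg
Fbp1: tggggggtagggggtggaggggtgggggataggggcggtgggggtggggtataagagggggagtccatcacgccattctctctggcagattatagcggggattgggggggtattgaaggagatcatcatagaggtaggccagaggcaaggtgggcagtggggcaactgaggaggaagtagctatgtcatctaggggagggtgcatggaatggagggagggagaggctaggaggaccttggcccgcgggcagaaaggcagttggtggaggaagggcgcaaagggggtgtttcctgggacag
Pck1: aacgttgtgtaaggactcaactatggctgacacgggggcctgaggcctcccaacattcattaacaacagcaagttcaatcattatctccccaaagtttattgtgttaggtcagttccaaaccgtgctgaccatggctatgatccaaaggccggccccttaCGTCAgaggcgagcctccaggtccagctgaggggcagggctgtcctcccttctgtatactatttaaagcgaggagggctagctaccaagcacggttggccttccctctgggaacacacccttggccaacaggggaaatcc
G6pc1: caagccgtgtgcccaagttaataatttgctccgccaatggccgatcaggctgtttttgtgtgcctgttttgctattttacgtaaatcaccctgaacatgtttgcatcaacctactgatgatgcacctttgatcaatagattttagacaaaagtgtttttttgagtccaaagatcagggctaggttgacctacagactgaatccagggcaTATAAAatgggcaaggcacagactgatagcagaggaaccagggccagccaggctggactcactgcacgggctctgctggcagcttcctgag
Ppargc1a held the full element, at position -181 counted from the start, and a further core on the minus strand at position 25. The full element occurred in 1.83% of 33469 windows of this length, and the core in 21.2%. Pck1 held the core on the minus strand at position -90, and G6pc1 held TATAAA at position -41, as did 14.2% of windows. Fbp1 held none of the 4 motifs in this window, and GTAAACA, present in 3.78% of windows, was in none of the member windows. Slc37a4 held the core in both of its windows, which overlap and share 1 of the matches, and those of Pck2 and Gcgr held none of the motifs. These are matches of letters only.

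G6pc1, which releases free glucose, was the most variable member. In total RNA it read 8.39, 7.99 and 7.19 in fed livers 1 to 3 and 7.53, 7.51 and 7.73 in fasted livers. In polysome RNA it read 6.88, 7.57 and 6.68 when fed and 7.30, 7.52 and 9.12 when fasted. The fed and fasted arrays overlapped in both fractions. Fasted polysome 3 stood apart from the others of its group, while the total RNA with the same number, fasted total 3, read 7.73.

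The fasting change of G6pc1 was -0.27 ± 0.41 log2 in total RNA and 0.93 ± 0.41 in polysome RNA (limma adjusted p = 0.811 and 0.212). Their difference was 1.20 ± 0.58 log2, with a 95% interval of -0.04 to 2.44 (limma adjusted p = 0.856). Without fasted polysome 3 the polysome change was 0.36 log2 (adjusted p = 0.609) and the difference 0.63 log2 (adjusted p = 0.999), and without fed total 1 the total change was 0.0004 log2. The 95% intervals of the changes were -1.14 to 0.61 log2 in total RNA and 0.06 to 1.81 in polysome RNA, the widest of the 8 genes.

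Some exocrine pancreas markers were high in some of the arrays that were high in G6pc1, though not in all of them. Of 11 such markers with a probe 8 passed the filter, and the summed intensity of all 11 ran from 1086 to 4165 in fed total, 986 to 1003 in fasted total, 849 to 1297 in fed polysome and 993 to 1187 in fasted polysome arrays. Cpa1, the pancreatic carboxypeptidase A, read 10.10, 7.87 and 8.98 in fed total arrays 1 to 3, an order other than that of G6pc1. Not every marker was highest in fed total arrays. Cpb1 read 7.47, 6.38 and 7.59 in fed total and 8.03, 7.57 and 8.03 in fasted total arrays. Cela1 read 6.78, 6.74 and 6.92 in fed total and 6.70, 6.77 and 6.91 in fasted total arrays. In fasted polysome 3, where G6pc1 was highest, Cpa1 read 7.29, within the range of 7.16 to 7.50 of that group. The part of pancreatic RNA in the fed total values of G6pc1 and of the other members was not tested.

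Slc37a4, the transporter that feeds G6pc1, kept a narrow spread. In total RNA it read 11.33, 11.46 and 11.39 in fed and 11.70, 11.40 and 11.61 in fasted livers, which overlapped (0.17 ± 0.097 log2, limma adjusted p = 0.408). On polysomes it read 10.55, 10.77 and 10.78 when fed and 10.64, 10.66 and 10.44 when fasted (-0.12 ± 0.097, limma adjusted p = 0.516). The changes pointed in opposite directions in the 2 fractions, and their difference of -0.30 ± 0.14 log2 (95% interval -0.59 to 0.0004) did not pass (limma adjusted p = 0.856).

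The remaining enzymes and the receptor did not change past the threshold. Pc, the first enzyme of the route from pyruvate, measured 0.14 ± 0.070 log2 in total RNA and -0.04 ± 0.070 on polysomes (limma adjusted p = 0.349 and 0.793). Its 12 values lay between 11.76 and 12.04. Pck2, the mitochondrial carboxykinase, measured 0.10 ± 0.097 and 0.01 ± 0.097 log2 (limma adjusted p = 0.676 and 0.96), with intervals of -0.11 to 0.31 and -0.20 to 0.22. Gcgr, the glucagon receptor, measured -0.04 ± 0.10 and -0.16 ± 0.10 log2 (limma adjusted p = 0.908 and 0.388), with intervals of -0.26 to 0.18 and -0.38 to 0.06. The intervals of Pc were -0.01 to 0.29 log2 in total RNA and -0.19 to 0.11 on polysomes.

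Over the 8 genes the median fasting change was 0.12 log2 in total RNA, with 5 of 8 above 0, beside 0.0007 over all tested genes, of which 50.2% were above 0. In polysome RNA it was 0.08 with 5 of 8 above 0, beside 0.02 and 54.0%. In total RNA 0 of the 8 passed the limma threshold, 2 had an unadjusted p under 0.05 (Fbp1 and Ppargc1a), and the background was 1.03% of genes called and 16.2% with an unadjusted p under 0.05. Fasted arrays lay wholly above fed arrays in total RNA for 2 of 8 members (12.9% of all genes) and wholly below for 0 (11.9%). In polysome RNA they lay wholly above for 2 of 8 (12.4%) and wholly below for 0 (8.38%), and 3 of 8 had an unadjusted p under 0.05 by limma (20.9%), with G6pc1 the third. For the difference between the fractions 0 of 8 and 0% of all genes passed the limma threshold, and 0 of 8 and 5.4% had an unadjusted p under 0.05.

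The comparison of polysome with total RNA sets each message's level on polysomes beside its total level, relative to the average message on the array. The fractions were also extracted by different methods, so a lower value cannot be read as ribosome loading alone. Slc37a4 was lower on polysomes by 0.69 ± 0.097 log2 in fed livers (1.61-fold, limma adjusted p = 0.0001) and by 0.99 ± 0.097 in fasted livers (1.98-fold, limma adjusted p = 6.7e-06). Gcgr was lower by 0.41 ± 0.10 log2 in fed and by 0.54 ± 0.10 in fasted livers (limma adjusted p = 0.00554 and 0.000883). Pck2 was lower by 0.32 ± 0.097 and 0.41 ± 0.097 log2 (limma adjusted p = 0.0171 and 0.00408). In these 3 genes every polysome array was below every total array of its diet.

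Within a group the arrays of Slc37a4, Gcgr and Pck2 spanned up to 0.35 log2. That widest range was of Pck2 in fed total RNA, beside its fed shift of 0.32. Gcgr read 9.43, 9.49 and 9.47 in fed total arrays and 9.20, 8.90 and 9.07 on fed polysomes. In fasted livers it read 9.34, 9.40 and 9.54 in total RNA and 9.11, 8.77 and 8.80 on polysomes. Pck2 read 9.78, 9.69 and 9.43 in fed total RNA and 9.29, 9.32 and 9.34 on fed polysomes, a narrow band. In fasted livers it read 9.56, 9.85 and 9.79 in total RNA and 9.29, 9.38 and 9.32 on polysomes. The calls of Slc37a4 and Gcgr held in all 12 fits that left out 1 array, in both diets, and those of Pck2 held except in fed livers without fed total 1 or fed total 2 (limma adjusted p = 0.0828 and 0.0577).

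Such differences were common. In fed livers 43.5% of tested genes differed past the threshold, with 24.1% higher and 19.4% lower on polysomes, and 4 of the 8 members passed, all of them lower. In fasted livers 43.7% passed, 25.5% higher and 18.2% lower, and 3 of the 8 members passed, again all lower. Lower on polysomes past the threshold in both diets were 3 of the 8 members and 14.7% of all genes. Polysome arrays lay wholly below total arrays for 5 of 8 members in fed livers (23.5% of all genes) and for 4 of 8 in fasted livers (21.5%), and wholly above for 0 of 8 (29.4% and 31.1%). An unadjusted p under 0.05 by limma was reached by 5 of 8 in fed (50.8%) and 4 of 8 in fasted livers (50.7%). The median over the 8 genes was -0.31 log2 in fed and -0.11 in fasted livers, beside 0.04 and 0.05 over all genes.

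The fourth call in fed livers was Fbp1, at -0.26 ± 0.098 log2 (limma adjusted p = 0.0473). All 3 fed polysome arrays were below all fed total arrays, but the call was lost with arrays centred on their median (adjusted p = 0.0872), with no filter (0.0692) and without any 1 of 8 arrays: fed polysome 2 or 3, fed total 1, 2 or 3, fasted polysome 3, and fasted total 1 or 2 (0.0546 to 0.138). In fasted livers Fbp1 measured -0.04 ± 0.098 log2 (limma adjusted p = 0.785). Ppargc1a measured -0.30 ± 0.13 log2 in fed livers (limma adjusted p = 0.0789) and -0.05 ± 0.13 in fasted livers (adjusted p = 0.793). In fed livers the adjusted p of Ppargc1a was 0.0381 with the liver as a random block and ran over 9 settings to 0.113 (arrays centred), with 4 of 9 past the threshold. Without 1 array it passed in 1 of 12 fits, that without fasted total 1 (0.0271), and reached 0.286 without fed polysome 2. Pc measured 0.01 ± 0.070 in fed and -0.17 ± 0.070 in fasted livers (limma adjusted p = 0.902 and 0.0698). The latter was 0.0374 with the liver block and 0.203 with arrays centred, and passed in 2 of 9 settings and in 0 of 12 limma fits without 1 array. G6pc1 measured -0.81 ± 0.41 and 0.39 ± 0.41 log2 (limma adjusted p = 0.125 in fed and 0.476 in fasted livers, the former 0.0277 with an SE of 0.27 without fasted polysome 3, an array that enters that comparison only through the pooled spread).

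Polysome minus total values by array number show how far these shifts varied. For Slc37a4 they were -0.79, -0.68 and -0.60 log2 in fed numbers 1 to 3 and -1.06, -0.74 and -1.16 in fasted ones. Those of Gcgr were -0.24, -0.595 and -0.40 in fed numbers and -0.24, -0.63 and -0.74 in fasted ones. Those of Pck2 were -0.49, -0.37 and -0.09 in fed numbers and -0.28, -0.47 and -0.47 in fasted ones. For Fbp1 they were -0.21, -0.27 and -0.29 in fed livers, and 0.23, -0.18 and -0.17 in fasted livers. For G6pc1 they were -1.51, -0.42 and -0.51 in fed and -0.23, 0.0038 and 1.39 in fasted livers. Slc37a4 was negative in all 6 numbers, whereas G6pc1 was negative in every fed number and took both signs in fasted ones.

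**Figure D3:**
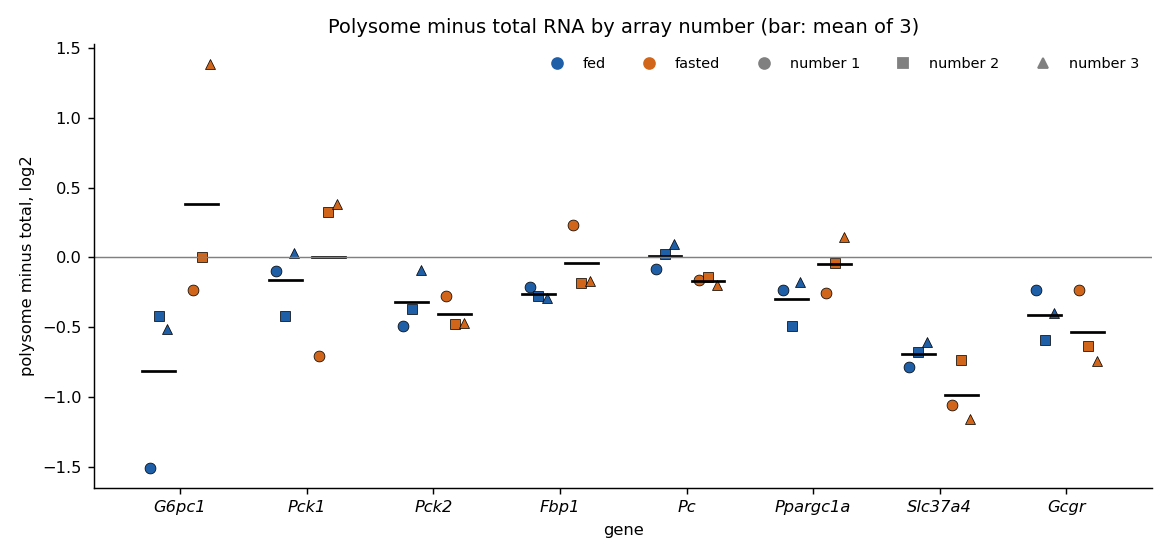
Polysome minus total value of each gene in log2 units, by array number within a diet (blue fed, orange fasted, bars are means of 3). Slc37a4, Gcgr and Pck2 lie below 0 in all 6 numbers, while G6pc1 runs from -1.51 to 1.39.

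The genes whose levels followed a member most closely over the 12 arrays were sought for the 5 members whose group means, or whose arrays of 1 group, spanned at least 0.5 log2. For Slc37a4 they were Tek, Gucy2c and Nucb2 (r = 0.99, 0.98 and 0.98), where Tek is one of the endothelial markers above, and for Gcgr Cnih1, Rps19 and Fzd4 (r = 0.96, 0.96 and 0.96). For Ppargc1a they were Uvrag, Arid5a and Anxa2 (r = 0.94, 0.92 and 0.90). For G6pc1 the closest was Eno3, the muscle-type enolase of the same route (r = 0.86), whose own range was 0.33 log2, followed by Nanp and Psip1 (r = 0.83 and 0.80). Pck1 had the loosest matches, Col4a3, Hspa12a and Znrf4 (r = 0.76, 0.73 and 0.72). The endothelial, macrophage and hepatocyte sums were all lower in every polysome array than in every total array of the same diet, as Slc37a4 was. The tubule sum was lower as well, but the gut sum was higher and the erythroid sum overlapped. Erythroid sums ran from 44877 to 47457 in fed total and from 45798 to 47935 in fed polysome arrays. In fasted arrays they ran from 45456 to 46800 and from 46288 to 46913. The part of such shifts in the values of Slc37a4 was not tested. The hepatocyte sums in total RNA ran from 111868 to 115022 in fed and from 110565 to 115936 in fasted livers. The arrays share groups and livers, so these are descriptions over 12 arrays.

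Around the 8 genes, 101 further genes of the route and its control were listed in 5 sublists, of which 86 could be tested. In total RNA 1 of the 86 rose and 0 fell past the limma threshold (background 0.737% higher and 0.295% lower), with a median change of 0.07 log2 beside 0.0007 over all genes. On polysomes 4 rose and 0 fell (background 1.59% higher and 0.423% lower), with a median of 0.05 beside 0.02. The lists were chosen with earlier results of these data known, so the counts only describe these lists. Among the 4 is Nr1d1, which passed the filter through its fasted arrays. For the difference between the fractions 0 of 86 passed.

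Of 22 tested transcriptional regulators, Trib3, a pseudokinase that binds the insulin-signalling kinase Akt, rose 2.08-fold in total RNA (1.05 ± 0.22 log2, limma adjusted p = 0.0429). On polysomes it measured 0.73 ± 0.22 log2 (limma adjusted p = 0.0908). Its fed total mean was 7.53 ± 0.065 and its fasted total mean 8.58 ± 0.56 (SD, n = 3), and the call was lost with no filter (adjusted p = 0.0552), with only the total arrays in the fit (0.0874), and without any 1 of 8 arrays: fed total 1, 2 or 3, fasted total 1 or 2, fed polysome 2, and fasted polysome 1 or 2 (0.0507 to 0.147). Nr1d1, the circadian repressor REV-ERB alpha, rose 1.82-fold on polysomes (0.86 ± 0.13, limma adjusted p = 0.0126). In total RNA it measured 0.46 ± 0.13 (limma adjusted p = 0.107). Its fed polysome arrays averaged 6.01, which is below the 6.07 used as filter level, and its fasted ones 6.87. The total RNA means were 6.07 when fed and 6.53 when fasted. Nr1d1 thus passed the filter through its fasted arrays, and its fed signal was close to background, which limits the polysome call. The call was lost without fed polysome 2 (0.0634) or fasted polysome 3 (0.0639). Creb3l3, a liver transcription factor of the fasting response, measured 0.43 ± 0.12 log2 in total and 0.47 ± 0.12 in polysome RNA (limma adjusted p = 0.0969 and 0.0558). Onecut1, a hepatocyte factor, measured 0.32 ± 0.12 and 0.45 ± 0.12 (limma adjusted p = 0.19 and 0.0579).

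Of 14 tested enzymes and regulators of the opposing direction, 2 rose on polysomes and 0 fell. The list holds genes that restrain that direction, such as Pdk4, so a rise is not by itself a rise of the opposing direction. Pdk4, which phosphorylates and inactivates pyruvate dehydrogenase and so spares pyruvate, rose 1.93-fold (0.95 ± 0.18 log2, limma adjusted p = 0.024). Its call was lost without fed polysome 2 or 3 or fasted polysome 1 or 3 (adjusted p from 0.0621 to 0.112). In total RNA Pdk4 measured 0.62 ± 0.18 log2 (limma adjusted p = 0.108). Pfkfb1, the liver enzyme that makes and breaks the allosteric signal of phosphofructokinase, rose 1.21-fold (0.28 ± 0.066, limma adjusted p = 0.0487, and 0.0505 with the liver block), a call that was also lost with the array number as a block (0.0529), with quantile normalization (0.0554), with no filter (0.0824), with only the polysome arrays (0.16) and without any 1 array other than fed polysome 1 or fasted polysome 2 (0.0596 to 0.167). In total RNA Pfkfb1 measured 0.25 ± 0.066 log2 (limma adjusted p = 0.0921). Pfkm, the muscle-type phosphofructokinase, measured -0.25 ± 0.091 and -0.23 ± 0.091 log2 in total and polysome RNA (limma adjusted p = 0.204 and 0.168). Pdk2, another dehydrogenase kinase, measured 0.22 ± 0.12 and 0.38 ± 0.12 (0.432 and 0.108).

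Of 18 enzymes shared by glycolysis and gluconeogenesis or supplying it, 0 passed the limma threshold in either fraction. The smallest p in total RNA belonged to Got1, the cytosolic aspartate aminotransferase, and that on polysomes to Ldhb. Got1 measured 0.58 ± 0.16 and 0.53 ± 0.16 log2 in total and polysome RNA (limma adjusted p = 0.0974 and 0.0864). Ldhb, a lactate dehydrogenase subunit, measured 0.40 ± 0.12 and 0.46 ± 0.12 (0.134 and 0.0687), Pgk1, the phosphoglycerate kinase, -0.16 ± 0.076 and -0.26 ± 0.076 (0.329 and 0.0821), and Aldoc, an aldolase, 0.16 ± 0.11 and 0.38 ± 0.11 (0.533 and 0.0844).

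Of 16 genes for substrate entry and glucose exit, 0 passed the limma threshold, with a median of 0.09 log2 in total RNA and 0.17 on polysomes. Gpt, the alanine aminotransferase, measured 0.31 ± 0.098 and 0.36 ± 0.098 log2 (limma adjusted p = 0.14 and 0.0662), and Slc25a11, the mitochondrial oxoglutarate carrier, 0.23 ± 0.068 and 0.24 ± 0.068 (0.114 and 0.0795). The subunits of the mitochondrial pyruvate carrier measured -0.12 ± 0.088 for Mpc2 and -0.0014 ± 0.091 for Mpc1 in total RNA, and 0.33 ± 0.088 and 0.31 ± 0.091 on polysomes (limma adjusted p = 0.0648 and 0.0817). The difference between the fractions was 0.45 ± 0.12 log2 for Mpc2 and 0.32 ± 0.13 for Mpc1 (limma adjusted p = 0.856 for both).

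Of 16 hormone signalling genes, Igfbp1, an insulin-repressed gene that FoxO factors drive, rose 1.61-fold on polysomes (0.69 ± 0.14 log2, limma adjusted p = 0.0372), with a total RNA change of 0.51 ± 0.14 (0.105). Its polysome call was lost with only the polysome arrays in the fit (0.0941) and without fed polysome 2 or 3, fed total 1 or fasted polysome 3 (0.0507 to 0.13). Gnas, the stimulatory G protein subunit that couples the glucagon receptor to cyclic AMP, measured 0.03 ± 0.076 and 0.25 ± 0.076 log2 (limma adjusted p = 0.885 and 0.0989). Prkaa2, a catalytic subunit of the AMP-activated kinase, measured 0.08 ± 0.13 and 0.32 ± 0.13 (0.826 and 0.168), and Stk11, the kinase upstream of it, 0.02 ± 0.063 and -0.16 ± 0.063 (0.929 and 0.181).

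**Figure D4:**
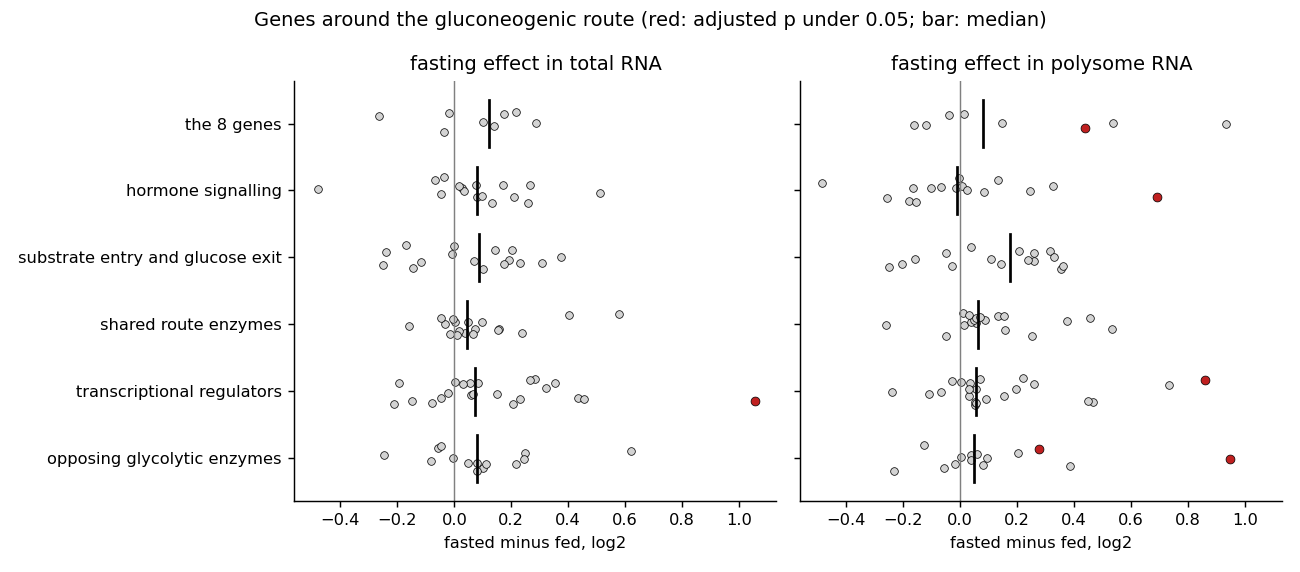
Fasted minus fed change in log2 units in total RNA (left) and polysome RNA (right) for the 8 genes and the 5 sublists of further route and control genes. Points are genes, with vertical jitter only, bars are medians, and red marks an adjusted p under 0.05, which applies to Trib3 in total RNA and to Fbp1, Igfbp1, Nr1d1, Pdk4 and Pfkfb1 in polysome RNA.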

How the data were processed

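The deposited table held intensity values on a linear scale (3.62 to 21344), for which the submitters' processing notes name RMA. No version is given in the sources used here, and the scale was read from the values. Of 28826 probes, 15209 carried exactly 1 gene symbol. The brightest probe stood for a gene, and genes with a mean below the 40th percentile of all probe means (6.07 log2) were left out, which kept 10174 and dropped 4323.

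Values were taken as log2(intensity + 1). Group means were estimated over the 12 arrays together in limma 3.58.1 under R 4.3.3 (8 residual and 5.16 prior degrees of freedom). P values are two-sided, adjusted by Benjamini-Hochberg over all tested genes, with a threshold of 0.05. The number of arrays limits the precision, with a median SE of 0.0945 log2 for fasting in total RNA. The fit was tested on simulated data. Plots used matplotlib 3.10.9 under Python 3.11.15.

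Arrays are numbered 1 to 3 in each group, and the labels do not say what a number marks. Deviations from the group means of total and polysome arrays with the same diet and number correlated at 0.15 to 0.36 in all 6 pairs, so the numbers were taken to pair these arrays, an inference from the data. Fed and fasted arrays of the same number correlated at -0.14 to 0.25. Genes were named by rule: the 8 members, in each sublist the 4 with the smallest p for fasting and any past the threshold, and for members that varied the 3 genes that followed them most closely. Alternatives are given in the closing section. The members and lists were chosen with earlier results of these data known.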

Additional observations from a re-analysis of the deposited data

How the results depend on the processing

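Besides leaving out each array, the fits were repeated with quantile normalization, without the filter, with array medians set equal, on log2 values with nothing added, and on probe means per gene. Others used a trend with robust priors, only the compared arrays, the array number as a replicate block, or a replicate block by liver. The number of members past the threshold for fasting on polysomes, 1 as reported, was 0 with no filter and with only the arrays compared, and 2 with centred arrays, with trend and robust priors, with the replicate block and with the replicate block by liver. It ran from 0 to 2 when single arrays were left out. In fed livers the number lower on polysomes, 4 as reported, was 5 with quantile normalization, only the compared arrays and either replicate block, 3 with no filter or centred arrays, and ran from 2 to 4 when single arrays were left out. The causes were not tested. The replicate block by liver changed no member's call other than those given for Ppargc1a and Pc. Quantile normalization moved group means of members by up to 0.0323 log2. Fbp1 on fasted polysomes against total RNA turned from -0.04 to 0.0027 with centred arrays. Signs of values near 0 turned when single arrays were left out. In total RNA the fasting change of G6pc1 ran from -0.6006 to 0.0004, of Pck1 from -0.0987 to 0.0731, of Pck2 from -0.0005 to 0.1873 and of Gcgr from -0.0916 to 0.0058. On polysomes it ran from -0.0412 to 0.4197 for Pck1 and from -0.0132 to 0.0338 for Pck2. The difference between fractions ran from -0.0233 to 0.4376 for Pck1 and from -0.1755 to 0.0124 for Pck2. Polysome against total RNA ran in fed livers from -0.2834 to 0.0261 for Pck1 and from -0.0239 to 0.0475 for Pc. In fasted livers it ran from -0.184 to 0.7279 for G6pc1, from -0.1569 to 0.2769 for Pck1, from -0.136 to 0.0579 for Fbp1 and from -0.1319 to 0.1136 for Ppargc1a. The dim signal of Pck1 limits what can be said of it.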
